A study of Mus musculus with 12 samples.

Results

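The genes described here are 10 products that astrocytes place at or around synapses. They are listed by name, with no measured value in the rule, although earlier results of these data were known when the list was made. They are the matricellular proteins Sparc and Sparcl1, the glypicans Gpc4, Gpc5 and Gpc6, the secreted factors Chrdl1 and Thbs4, the engulfment receptor Megf10, and the lecticans Ncan and Bcan. All 10 were found by symbol among 32783 Ensembl gene identifiers, and each was listed in both count tables (27866 identifiers for the astrocyte-enriched fraction, 30359 for the microglia-enriched fraction).

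Wild-type male C57Bl6/J mice received an adeno-associated virus (AAV2/9) in the CA1 area of both hippocampi at 2 months of age, and the hippocampi were collected 2 months later, at 4 months of age. The AAV-A2A vector carried the mouse adenosine A2A receptor and the AAV-GFP control vector carried eGFP, both behind the astrocyte-selective promoter GfaABC1D, so the control animals were also injected and also carried virus. After removal of myelin, magnetic beads against ACSA-2, an antigen of the astrocyte surface, retained an astrocyte-enriched fraction, and beads against CD11b retained a microglia-enriched fraction from the cells that ACSA-2 beads had left unbound. There were 12 poly(A) RNA libraries, 3 animals for each vector in each fraction. The whole dissociated hippocampus was sorted, so transduced and untransduced cells of CA1 and of the other hippocampal areas were mixed.

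The libraries are named by vector and number, GFP-303, GFP-306, GFP-307, A2A-309, A2A-310 and A2A-313 for ACSA-2 and GFP-2328, GFP-2329, GFP-2331, A2A-2343, A2A-2344 and A2A-2347 for CD11b. Reads counted on genes came to between 33937067 and 49217553 per ACSA-2 library and between 36098295 and 53206974 per CD11b library. Adora2a, the gene carried by AAV-A2A, stood at 24.2 ± 1.12 CPM, that is counts relative to library size (SD, n = 3), with AAV-GFP and at 786 ± 147 CPM with AAV-A2A in the ACSA-2 libraries, and reads of the vector and of the endogenous gene cannot be told apart. In the CD11b libraries Adora2a was read at 3.96, 4.79 and 8.07 CPM with AAV-GFP and at 17.8, 43.3 and 16.3 CPM with AAV-A2A, without overlap. The log2 FC was 2.20 ± 0.54 (edgeR adjusted p = 0.280, DESeq2 adjusted p = 0.0247). In the ACSA-2 libraries the 10 astrocyte markers summed to 25640 to 36210 CPM and the 10 microglial markers to 430 to 817 CPM, against 260 to 553 CPM and 13250 to 75930 CPM in the CD11b libraries. The 3 CD11b libraries GFP-2328, GFP-2329 and A2A-2347 stood apart: the 5 choroid plexus markers (Ttr, Kl, Clic6, Folr1 and Kcne2) summed to 84530, 66930 and 32070 CPM there, against 8.87 to 85.5 CPM in the other 3. Every result on CD11b libraries below is therefore also given without them where its direction or call changed. This omission was chosen after the data were seen. The fraction coincides with the count table, so a difference between the fractions cannot be told apart from a difference between the tables or their sequencing.

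As background, astrocytes govern how synapses form, mature and are removed through proteins they secrete, anchor to their membrane or lay down in the matrix. Hevin, the product of Sparcl1, bridges adhesion proteins of the presynaptic and postsynaptic membranes and promotes excitatory synapses, whereas SPARC counteracts it. Glypicans 4 and 6 recruit AMPA-type glutamate receptors, chordin-like 1 promotes the maturation of synapses and binds bone morphogenetic proteins, thrombospondins act through a calcium channel subunit on neurons, and MEGF10 lets astrocytes engulf synaptic material. The lecticans neurocan (Ncan) and brevican (Bcan) bind hyaluronan in the matrix that surrounds synapses and perineuronal nets.

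Sequence upstream of the annotated start was held for 6 of the 10 genes (Sparc, Gpc4, Gpc5, Ncan, Bcan and Thbs4) in the RefSeq table of GRCm38.p6 promoters, which had no entry for Sparcl1, Gpc6, Chrdl1 and Megf10. Those of Bcan, Gpc5 and Thbs4 are shown, 250 bases each and 5′ to 3′ on the gene's strand, because their windows overlap no annotated exon. Capitals mark matches, on either strand, to any of 5 short words. The NFI word was TTGGC and the SOX word ACAATG, both named after families of factors that act in astrocytes. The PU.1 word, for a factor of microglia, was GAGGAA, the TATA word was TATAAA and the GC box word was GGGCGG.
Bcan, chr3:88000357-88000606, minus strand: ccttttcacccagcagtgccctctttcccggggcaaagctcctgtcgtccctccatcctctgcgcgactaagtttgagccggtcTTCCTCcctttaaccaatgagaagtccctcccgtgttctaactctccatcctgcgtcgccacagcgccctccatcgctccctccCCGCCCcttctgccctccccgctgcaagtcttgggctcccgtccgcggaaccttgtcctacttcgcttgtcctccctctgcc
Gpc5, chr14:115091965-115092214, plus strand: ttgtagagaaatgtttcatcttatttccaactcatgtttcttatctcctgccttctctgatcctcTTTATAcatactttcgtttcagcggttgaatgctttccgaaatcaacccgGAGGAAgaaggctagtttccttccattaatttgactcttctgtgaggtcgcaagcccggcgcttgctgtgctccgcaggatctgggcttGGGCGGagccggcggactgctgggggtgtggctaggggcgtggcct
Thbs4, chr13:92794819-92795068, minus strand: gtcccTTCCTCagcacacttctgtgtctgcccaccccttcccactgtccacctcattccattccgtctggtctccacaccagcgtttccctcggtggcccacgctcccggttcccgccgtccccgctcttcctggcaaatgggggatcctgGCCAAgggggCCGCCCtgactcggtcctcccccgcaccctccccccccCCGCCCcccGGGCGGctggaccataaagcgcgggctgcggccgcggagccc
Each of the 3 windows held the PU.1 word and the GC box word, which occur in 23.3% and 32.7% of all 32851 promoter windows of this length. The Gpc5 window also held the TATA word on the opposite strand (12.4% of windows), and the Thbs4 window held the NFI word (41.5%) and 3 copies of the GC box word. None of the 3 held the SOX word, found in 10.7% of windows. CpG dinucleotides numbered 16 for Bcan, 12 for Gpc5 and 19 for Thbs4, against a median of 6 over all windows. These matches describe letters only and were not tested as binding sites.

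In the ACSA-2 libraries the 10 genes spanned a wide range of levels, and their order was nearly the same with both vectors. Levels of different genes are compared as CPM per kilobase of exon model, on 1 scale over all 12 libraries. Sparcl1 was highest with AAV-GFP, at 1503 ± 144 CPM per kb (SD, n = 3), followed by Sparc at 358 ± 21.9, Bcan at 274 ± 29.7 and Gpc5 at 60.2 ± 0.924. The ranges of these 4 genes over their 3 libraries did not overlap with each other. Thbs4 (19.7 ± 6.05) and Ncan (14.5 ± 2.40) overlapped, Gpc4 followed at 10.1 ± 0.341, and Gpc6 (3.67 ± 0.693), Megf10 (2.73 ± 0.933) and Chrdl1 (2.04 ± 0.554) overlapped one with the next. Among the glypicans, Gpc5 was thus listed well above Gpc4 and Gpc6 in every ACSA-2 library. With AAV-A2A the first 8 places were held by the same genes in the same order, while Chrdl1 (2.37 ± 0.733) and Megf10 (1.99 ± 0.512), whose ranges overlapped, changed places.

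**Figure D1:**
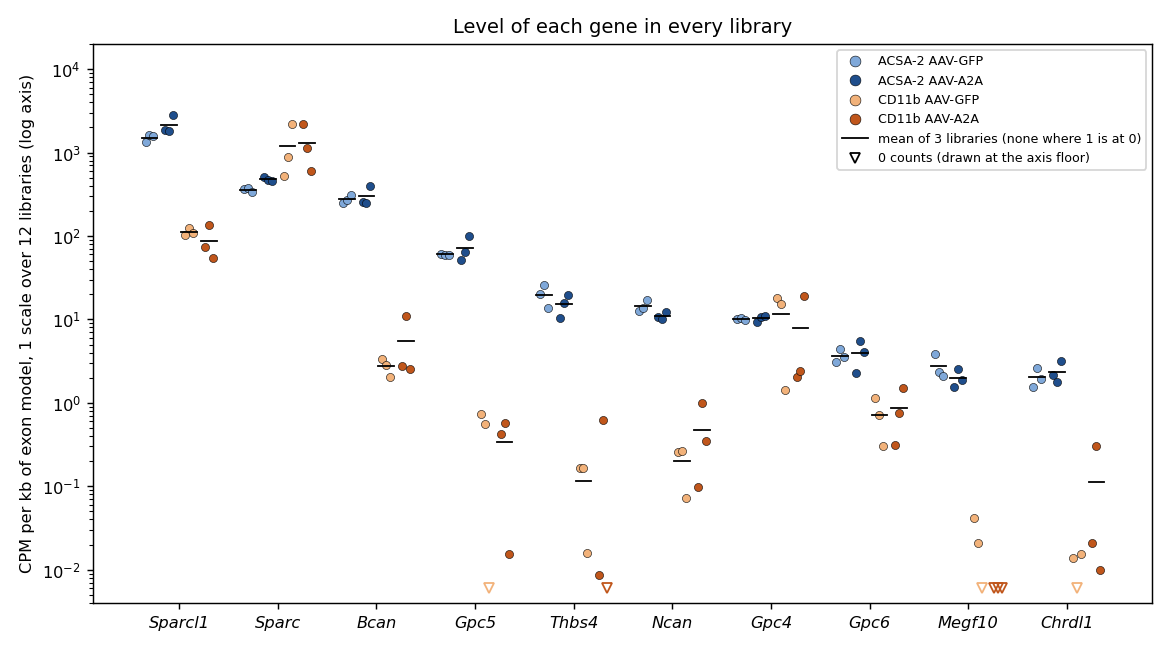
Level of each of the 10 genes in every library, in CPM per kb of exon model on a logarithmic axis, by fraction and vector, where points are libraries, bars are means of 3 libraries (none where 1 is at 0) and open triangles are libraries with 0 counts. The ACSA-2 points of 8 genes lie above all their CD11b points, those of Sparc lie below, and those of Gpc4 fall between separated CD11b points.

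The comparison of ACSA-2 with CD11b libraries asks which of the 10 genes belonged to the astrocyte-enriched fraction. A gene was called at an edgeR adjusted p under 0.05 (Benjamini-Hochberg over all 18602 tested genes) and an absolute log2 fold change (log2 FC) over 0.32. With AAV-GFP 9 of the 10 genes were called, 8 higher and 1 lower in ACSA-2, where 26.7% of all tested genes were called, 12.3% higher and 14.4% lower. With AAV-A2A 8 were called, all higher, where 46% of all tested genes were called, 21% higher and 25% lower. Chrdl1 and Megf10, too sparse in CD11b to be tested there, passed the filter of this fit through their ACSA-2 counts. A higher value in ACSA-2 was thus favoured in advance for both, and their calls and adjusted p are no support. Under upper quartile scaling that split turned, from 3899 higher and 4658 lower genes to 4745 higher and 3747 lower, while the calls of the 10 genes did not change direction. Higher in every ACSA-2 library than in every CD11b library were 8 of the 10, beside 15.8% of all tested genes, and Sparc was higher in every CD11b library (15.8%). In bulk RNA, fewer cells of a type and less RNA per cell cannot be told apart. The median log2 FC of the 10 genes was 6.41 and 4.57, beside -0.11 and -0.050 over all tested genes.

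The lecticans of the perisynaptic matrix were far more abundant in the ACSA-2 libraries. Bcan (ENSMUSG00000004892, chr3:87987531-88000230 of GRCm38, minus strand) was read at 249, 267 and 307 CPM per kb with AAV-GFP and 256, 251 and 395 with AAV-A2A, and in CD11b at 3.34, 2.87 and 2.04 with AAV-GFP and 2.73, 11.1 and 2.54 with AAV-A2A. Every ACSA-2 library lay far above every CD11b library. Its log2 FC was 6.64 ± 0.65 (SE) with AAV-GFP and 5.78 ± 0.62 with AAV-A2A (edgeR adjusted p = 5.1e-05 and 5.9e-05). For Ncan (ENSMUSG00000002341, chr8:70093085-70120873, minus strand) the log2 FC was 6.18 ± 0.79 and 4.52 ± 0.73 (edgeR adjusted p = 0.000296 and 0.000503). Among CD11b libraries both lecticans were highest in A2A-2344, with 1524 counts of Bcan and 239 of Ncan against 318 to 723 and 20 to 149 in the other 5. That library also had the highest sums of the 10 astrocyte markers and of the 7 oligodendrocyte precursor markers in CD11b, 553 and 135 CPM, and their part in these levels was not tested.

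The secreted factors and the glypican Gpc5 showed differences of the same order, at lower counts in CD11b. Gpc5 (ENSMUSG00000022112, chr14:115092215-116525179, plus strand) was read at 61.3, 59.5 and 59.9 CPM per kb in ACSA-2 with AAV-GFP and at 52.0, 64.8 and 99.1 with AAV-A2A. In CD11b it had 176, 108 and 0 counts with AAV-GFP and 67, 86 and 4 with AAV-A2A, against 8269 to 20322 counts in the ACSA-2 libraries. The log2 FC was 7.11 ± 1.43 with AAV-GFP and 7.75 ± 1.48 with AAV-A2A (edgeR adjusted p = 0.00419 and 0.00135). Gpc5 shares 107 exon bases, 2.40% of its exon model, with the antisense gene Gm20713, and no other of the 10 genes shares exon bases with another gene. Thbs4 (ENSMUSG00000021702, chr13:92751590-92794818, minus strand) had 1216 to 2970 counts in the ACSA-2 libraries, while in CD11b it had 29, 24 and 2 with AAV-GFP and 1, 70 and 0 with AAV-A2A. Its log2 FC was 7.38 ± 1.53 and 6.20 ± 1.45 (edgeR adjusted p = 0.00492 and 0.00471). Chrdl1 (ENSMUSG00000031283, chrX:143285674-143394262, minus strand) had 405 to 991 counts in ACSA-2 and, in CD11b, 5, 0 and 4 with AAV-GFP and 5, 70 and 4 with AAV-A2A. The 70 counts were again those of A2A-2344. The log2 FC of Chrdl1 was 7.64 ± 1.38 with AAV-GFP and 4.41 ± 1.16 with AAV-A2A (edgeR adjusted p = 0.00231 and 0.00881). Without A2A-2344 the AAV-A2A values were 7.25 for Chrdl1 and, with 1 CD11b count left in that group, 11.8 for Thbs4.

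Megf10, the engulfment receptor (ENSMUSG00000024593, chr18:57133090-57297467, plus strand), was read 1148, 598 and 599 times in ACSA-2 with AAV-GFP and 425, 832 and 668 times with AAV-A2A. In CD11b it was read 17, 7 and 0 times with AAV-GFP and 0 times in each AAV-A2A library. With AAV-GFP its log2 FC was 6.98 ± 0.99 (edgeR adjusted p = 0.00103), and the 24 CD11b counts came from GFP-2328 and GFP-2329. With AAV-A2A it was at least 654-fold higher in ACSA-2, against a floor of 3 counts over the group that covers counting error only.

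Sparcl1 and Gpc6 were also higher in ACSA-2, by smaller factors. Sparcl1 (ENSMUSG00000029309, chr5:104079111-104113733, minus strand) was read at 1338, 1603 and 1570 CPM per kb with AAV-GFP and 1865, 1793 and 2819 with AAV-A2A in ACSA-2, and at 103, 125 and 109 and 72.8, 137 and 54.2 in CD11b. The ranges did not overlap, and Sparcl1 remained the second most abundant of the 10 genes in CD11b. Its log2 FC was 3.75 ± 0.42 and 4.62 ± 0.43 (edgeR adjusted p = 0.000123 and 2.7e-05). Gpc6 (ENSMUSG00000058571, chr14:116925315-117976544, plus strand) had a log2 FC of 2.36 ± 0.62 and 2.19 ± 0.61 (edgeR adjusted p = 0.0163 and 0.0124). With AAV-GFP the call of Gpc6 was lost when GFP-307 (adjusted p = 0.0503) or GFP-2329 (0.0537) was left out.

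Sparc and Gpc4 did not follow the other 8 genes. Sparc (ENSMUSG00000018593, chr11:55394500-55423183, minus strand) was read at 366, 375 and 333 CPM per kb with AAV-GFP and 516, 473 and 456 with AAV-A2A in ACSA-2, and at 518, 873 and 2180 and 2168, 1131 and 604 in CD11b. The lowest CD11b library lay just above the highest ACSA-2 library, and Sparc ranked first of the 10 genes in CD11b, at 1190 ± 876 and 1301 ± 796 CPM per kb. The log2 FC was -1.73 ± 0.55 with AAV-GFP (edgeR adjusted p = 0.0381) and -1.43 ± 0.55 with AAV-A2A (0.0508). With AAV-GFP the call held when GFP-2328, A2A-2343, A2A-2344 or A2A-2347 was left out, and was lost without each of the other 8 libraries (adjusted p from 0.0520 to 0.155). The log2 FC was -0.96 without GFP-2331 and, with AAV-A2A, -0.85 without A2A-2343. With AAV-A2A it passed without GFP-2328, GFP-2331 or A2A-2347 (adjusted p = 0.0306, 0.0147 and 0.0180), with DESeq2 (0.0299) and with a minimum of 10 counts in every library (0.048). With AAV-GFP it did not pass in the fit to the 6 libraries of that vector (0.0603).

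Gpc4 (ENSMUSG00000031119, chrX:52053021-52165252, minus strand) was even across ACSA-2, at 9.85 to 10.5 CPM per kb with AAV-GFP and 9.21, 10.6 and 11.0 with AAV-A2A. In CD11b it was read at 17.9, 15.2 and 1.41 with AAV-GFP and 2.07, 2.38 and 19.0 with AAV-A2A. The 3 high libraries were GFP-2328, GFP-2329 and A2A-2347, those rich in choroid plexus markers, and the ACSA-2 libraries fell between both sets. No difference between the fractions was called, with a log2 FC of -0.19 (95% confidence interval -2.10 to 1.73) with AAV-GFP and 0.39 (-1.53 to 2.31) with AAV-A2A. Without the 3 choroid plexus-rich libraries, the log2 FC of Gpc4 was 2.82 with AAV-GFP and 2.18 with AAV-A2A. That omission was chosen after the data were seen. It removes the CD11b libraries with the highest Gpc4, so these values are no separate support for a difference between the fractions. Leaving out A2A-2347 alone gave a log2 FC of 2.20 with AAV-A2A (adjusted p = 0.0387). Without all 3 libraries Sparc was lower in ACSA-2 with both vectors (log2 FC -2.63 ± 0.34 and -1.81 ± 0.29, adjusted p = 0.000265 and 0.000522), and all 10 genes were called with both vectors, as were 25.3% and 42.6% of all tested genes. That fit leaves 1 CD11b library with AAV-GFP, which is assumed to vary like the other groups.

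**Figure D2:**
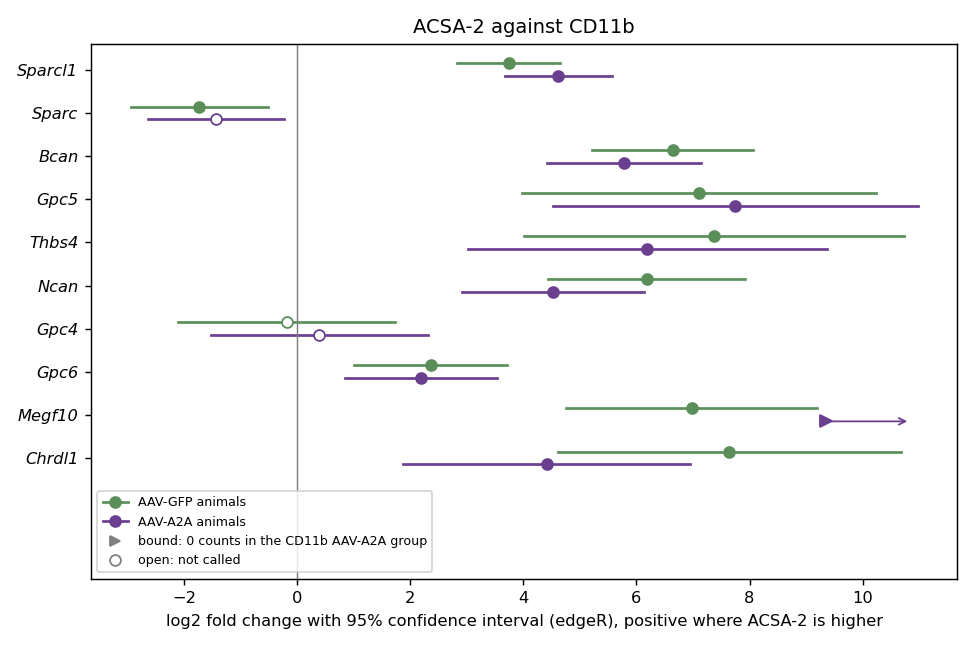
Log2 fold change of ACSA-2 against CD11b libraries for each gene, with its 95% confidence interval, for AAV-GFP and AAV-A2A animals, where filled points were called, open points were not, and the triangle is the lower bound for Megf10 with AAV-A2A. The points of 8 genes lie to the right of 0 with both vectors, Gpc4 straddles 0 and Sparc lies to its left.

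The comparison of AAV-A2A with AAV-GFP within the ACSA-2 libraries asks whether the receptor in astrocytes altered these genes. None of the 10 was called, where 3.36% of the 16451 tested genes were called (0.176% higher and 3.19% lower). Their log2 FC lay between -0.43 and 0.55, with a median of 0.15 beside 0.022 over all tested genes, and 7 of 10 were above 0. The 2 genes with the largest positive values, Sparcl1 and Sparc, were the only ones of the 10 whose vector groups did not overlap. Without overlap and with AAV-A2A higher were 8.61% of all tested genes, and 13% of all tested genes, beside 2 of the 10, had an unadjusted p under 0.05. Values below are CPM scaled within the fraction.

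Sparcl1, which encodes hevin, was read at 3851, 4662 and 4527 CPM with AAV-GFP and at 5427, 5269 and 8443 CPM with AAV-A2A. All 3 AAV-A2A libraries lay above the AAV-GFP libraries, and A2A-313 lay far above the other 2. The log2 FC was 0.55 ± 0.22 (95% confidence interval 0.062 to 1.05, edgeR adjusted p = 0.305), and 0.29 without A2A-313. Sparc was read at 1358, 1407 and 1239 CPM with AAV-GFP and 1937, 1793 and 1761 CPM with AAV-A2A. Here the spread within each group was small, with means of 1334 ± 86.0 and 1830 ± 93.4 CPM. The log2 FC was 0.46 ± 0.16 (0.10 to 0.81, edgeR adjusted p = 0.215), and between 0.40 and 0.49 with any 1 library left out. With DESeq2, which called 6.85% of its tested genes, Sparc passed (adjusted p = 0.0321) and Sparcl1 did not (0.152). Together the 10 genes made up 0.651, 0.759 and 0.767% of the counts of the AAV-GFP libraries and 0.935, 0.892 and 1.15% of those of the AAV-A2A libraries, the larger part of it from Sparcl1.

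Astrocyte markers were also highest in A2A-313, with a sum of 36210 CPM against 25640 to 29430 CPM in the other 5 libraries, and their part in these levels was not tested. Per 1000 counts of the summed astrocyte markers, a scale chosen after the data were seen, Sparcl1 stood at 127, 166 and 181 with AAV-GFP and 216, 192 and 214 with AAV-A2A, still without overlap. Sparc stood at 44.8, 50.0 and 49.5 and at 77.2, 65.3 and 44.6, so that A2A-313 fell below the AAV-GFP libraries. This scale follows Aldoc in large part, which gave 15120 of the mean sum of 27630 CPM with AAV-GFP and 17590 of 30460 CPM with AAV-A2A. Of the 10 astrocyte markers, 7 had vector values above 0 and 3 below, and 1 was called lower. The 10 markers of microglia, which also express Sparc, summed in ACSA-2 to 454 to 817 CPM with AAV-GFP and 430 to 737 CPM with AAV-A2A, and their part in the Sparc values was not tested.

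Among the matrix and engulfment genes the values pointed both ways, and none passed. Ncan was read at 88.7, 97.6 and 121 CPM with AAV-GFP and 76.3, 72.0 and 89.5 CPM with AAV-A2A, a log2 FC of -0.37 (95% confidence interval -0.80 to 0.055, edgeR adjusted p = 0.476). The groups overlapped by a single library, A2A-313. Bcan was read at 991, 1076 and 1224 CPM and at 1030, 1019 and 1636 CPM, a log2 FC of 0.16 (-0.33 to 0.65), or -0.10 without A2A-313. The 2 lecticans therefore had values on opposite sides of 0, and the difference between them was not tested. Megf10 had a log2 FC of -0.43 (-1.16 to 0.31, edgeR adjusted p = 0.698). The 7 oligodendrocyte precursor markers, cells that also make lecticans, summed to 360 to 568 CPM with AAV-GFP and 167 to 317 CPM with AAV-A2A, with means of 492 and 264 CPM. Cspg4, which is also expressed by pericytes and gave 254 of the 492 CPM, was the 1 marker called (log2 FC -2.18, edgeR adjusted p = 0.00226). Of the 6 tested, 4 had values below 0 and 2 above, up to 1.08, Gpr17 had 0 counts in the AAV-GFP group, and the part of these markers in the Ncan values was not tested.

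The glypicans, Chrdl1 and Thbs4 overlapped between the vectors. Gpc5 was read at 267, 262 and 262 CPM with AAV-GFP and at 229, 289 and 450 CPM with AAV-A2A. The control libraries were almost identical, and the AAV-A2A libraries lay on both sides of them. The log2 FC of Gpc5 was 0.29 (95% confidence interval -0.24 to 0.82) and -0.032 without A2A-313. Gpc4 had a log2 FC of 0.050 (-0.44 to 0.54), Gpc6 of 0.13 (-0.62 to 0.89), Chrdl1 of 0.25 (-0.51 to 1.02) and Thbs4 of -0.34 (-1.02 to 0.34). Without A2A-313 the values of Gpc4 and Chrdl1 fell to -0.020 and -0.038, and without A2A-310 that of Gpc6 fell to -0.18.

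**Figure D3:**
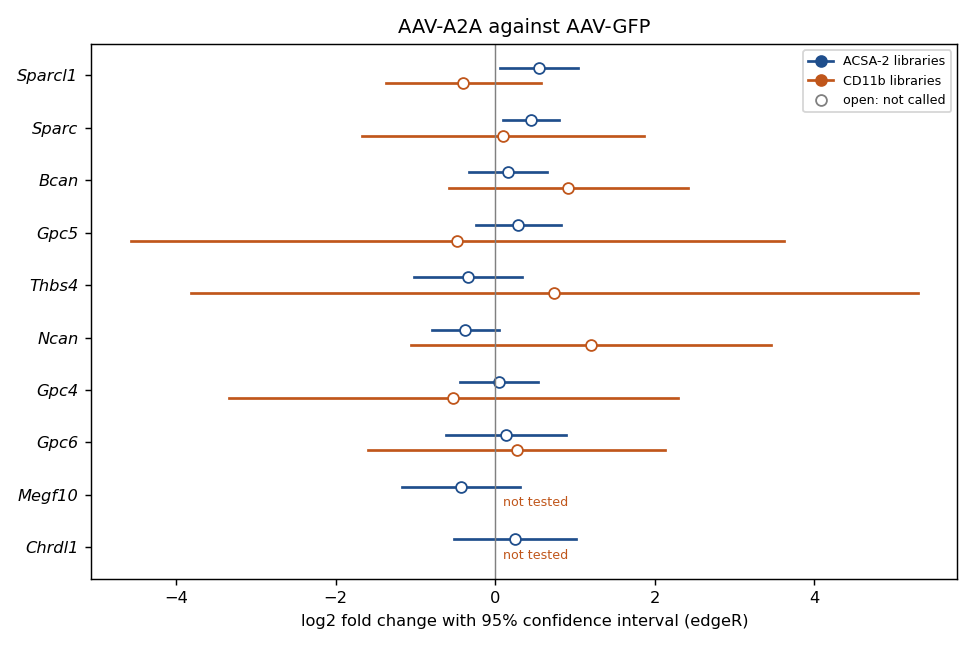
Log2 fold change of AAV-A2A against AAV-GFP for each gene, with its 95% confidence interval, in ACSA-2 and in CD11b libraries, with open points throughout because no gene was called. In ACSA-2 the intervals of Sparcl1 and Sparc lie above 0, and each CD11b interval includes 0.

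In the CD11b libraries 8 of the 10 genes had enough counts to be tested between the vectors, and Chrdl1 and Megf10 did not pass the filter on low counts. None was called with edgeR, which called 0% of its 16949 tested genes and gave an unadjusted p under 0.05 to 2704 of them, but to none of the 8. DESeq2 called 2.46% of its tested genes and none of the 10. The log2 FC of the 8 lay between -0.52 for Gpc4 and 1.20 for Ncan, with a median of 0.18 beside -0.050 over all tested genes. Each interval included 0. The vector groups overlapped for each of the 8, whereas 23.4% of all tested genes had no overlap, and 16% had an unadjusted p under 0.05.

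The levels of Gpc4 and Sparc in CD11b separated the choroid plexus-rich libraries from the other 3, and did not separate the vectors. Gpc4 was read at 50.0, 41.3 and 3.63 CPM with AAV-GFP and at 5.23, 6.03 and 54.8 CPM with AAV-A2A. Sparc was read at 2061, 3390 and 8028 CPM and at 7848, 4096 and 2484 CPM. In the 3 libraries with choroid plexus sums of 32070 to 84530 CPM, Gpc4 was high and Sparc was low. In the other 3 Gpc4 was low and Sparc lay between 4096 and 8028 CPM. The 10 microglial markers summed to 13250 to 30430 CPM in the choroid plexus-rich libraries and to 59300 to 75930 CPM in the other 3. All 5 choroid plexus markers had counts in both CD11b groups, and the part of these cells in the levels was not tested. The log2 FC between the vectors was -0.52 (95% confidence interval -3.34 to 2.29) for Gpc4 and 0.098 (-1.67 to 1.87) for Sparc, and both changed sign without the 3 libraries, to 0.64 ± 0.98 and -0.42 ± 0.71.

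**Figure D4:**
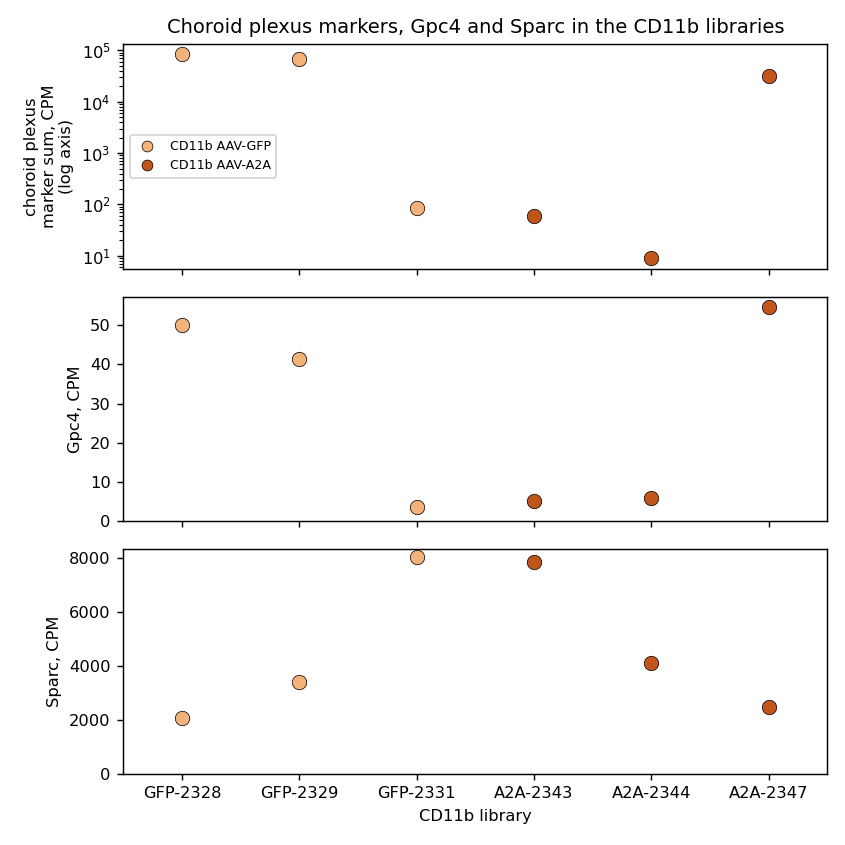
Summed choroid plexus markers (CPM, logarithmic axis), Gpc4 (CPM) and Sparc (CPM) in each of the 6 CD11b libraries, coloured by vector. GFP-2328, GFP-2329 and A2A-2347 have the 3 highest marker sums, the 3 highest Gpc4 values, from 41.3 to 54.8 CPM, and the 3 lowest Sparc values, from 2061 to 3390 CPM.

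Among the other genes tested in CD11b, Bcan and Ncan were high in a single library. Bcan was read at 14.3, 12.0 and 8.07 CPM with AAV-GFP and 10.6, 43.1 and 11.2 CPM with AAV-A2A, and Ncan at 1.93, 1.97 and 0.507 CPM and at 0.681, 6.76 and 2.74 CPM. The high values of both were those of A2A-2344, and without it the log2 FC went from 0.92 to -0.079 for Bcan, from 1.20 to 0.19 for Ncan and, with 1 Thbs4 count left in the AAV-A2A group, from 0.74 to -4.74 for Thbs4. Sparcl1 was read at 318, 375 and 311 CPM with AAV-GFP and at 204, 385 and 173 CPM with AAV-A2A, a log2 FC of -0.40 (95% confidence interval -1.37 to 0.58). Gpc5, Gpc6 and Thbs4 had intervals of -4.57 to 3.62, -1.59 to 2.13 and -3.82 to 5.31, so differences between the vectors within these bounds remain compatible with the data. For Megf10 the 24 counts with AAV-GFP against 0 with AAV-A2A were at least 7.01-fold lower with AAV-A2A, against the floor of 3 counts over the group. All 24 came from choroid plexus-rich libraries, and without the filter edgeR gave an adjusted p of 0.440.

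Whether the vector acted differently in both fractions was tested as the difference of the 2 effects over all 12 libraries. None of the 10 genes was called, where 0.403% of the 18602 tested genes were called. The differences lay between -3.23 for Chrdl1 (95% confidence interval -6.61 to 0.16, edgeR adjusted p = 0.278) and 5.34 for Megf10 (1.5 to 9.17, 0.141). Neither gene had enough CD11b counts to be tested between the vectors there, and both entered this fit through their ACSA-2 counts. No difference of effects is read from either value. Without A2A-2344 the difference of Chrdl1 was -0.38. The value of Megf10 rests on the 0 counts of the CD11b AAV-A2A group and is no bound. It passed with DESeq2 (adjusted p = 0.0264), which called 9.02% of its tested genes, and with edgeR without GFP-2331 (0.0205). For Sparc and Sparcl1 the differences were 0.30 (-1.37 to 1.97) and 0.87 (-0.28 to 2.03).

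The partners of these genes were read from lists of relatives, receptors and proteases. In ACSA-2, 5 of their genes were called between the vectors, all lower with AAV-A2A, as were 524 of the 553 genes called in all. Of 12 engulfment receptors and adaptors 4 were called lower and none higher, beside 3.19% and 0.176% of all tested genes. Their median log2 FC was -0.32, beside 0.022 over all tested genes. Axl, a receptor tyrosine kinase for Gas6 and protein S, was read at 424, 457 and 496 CPM with AAV-GFP and 211, 141 and 198 CPM with AAV-A2A. The groups were far apart, and the log2 FC was -1.33 ± 0.19 (edgeR adjusted p = 0.00567). Lrp1, an endocytic receptor of apolipoprotein E and many matrix proteins, went from 829, 741 and 571 CPM to 318, 231 and 166 CPM (log2 FC -1.58 ± 0.26, adjusted p = 0.00921). Abca1, a lipid exporter, had a log2 FC of -1.46 ± 0.28 (adjusted p = 0.0198). Pear1, a relative of Megf10, had a log2 FC of -1.68 ± 0.35 (adjusted p = 0.0296). Mfge8, a bridging protein that binds apoptotic membranes, was the most abundant of the list by CPM, with a log2 FC of 0.34 ± 0.22 (adjusted p = 0.623).

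Only Axl of these passed in all 6 fits that left out 1 ACSA-2 library. Lrp1 was lost without GFP-306 or A2A-310 (adjusted p = 0.0518 and 0.0565) and Abca1 without any library but GFP-303 (0.0537 to 0.0967). Pear1 was lost without GFP-306, GFP-307, A2A-310 or A2A-313 (0.124 to 0.128). Of the 6 endothelial markers in ACSA-2, 4 had values below 0 (median log2 FC -0.88) and 1, Flt1, was called lower (log2 FC -1.66, adjusted p = 0.00523), with sums of 421 to 511 CPM with AAV-GFP and 246 to 492 CPM with AAV-A2A. All 6 mural markers had values below 0 and none was called, with sums of 4595 to 4919 CPM and 3304 to 5265 CPM. The part of these cells in the engulfment values was not tested. In CD11b none of the 12 engulfment genes was called, where 0 of all 16949 tested genes were called. Vector groups without overlap were found for 3 of the 12, beside 23.4% of all tested genes. Of the 12 engulfment genes, 9 had values above 0 and 3 below. Their median log2 FC there was 1.155, beside -0.050 over all tested genes. The log2 FC in CD11b was 2.08 ± 0.36 for Axl and 1.32 ± 0.62 for Lrp1 (edgeR adjusted p = 0.280 and 0.347).

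**Figure D5:**
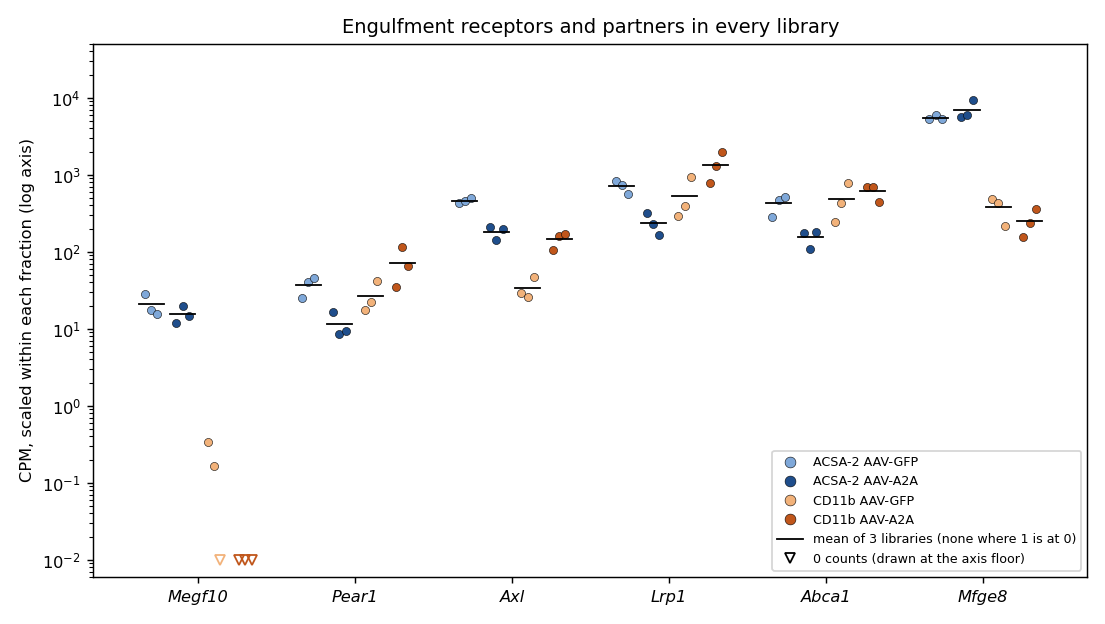
Megf10 and named genes of the engulfment list in every library, in CPM scaled within each fraction on a logarithmic axis, where points are libraries, bars are means of 3 libraries (none where 1 is at 0) and open triangles are libraries with 0 counts. In ACSA-2 the AAV-A2A points of Pear1, Axl, Lrp1 and Abca1 lie below the AAV-GFP points, and those of Megf10 and Mfge8 overlap with them.

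Of the 10 genes listed as lectican proteases, 8 were tested in ACSA-2 and all 8 had values below 0. Their median log2 FC was -0.82 beside 0.022 over all tested genes. Not each of them is known to cleave neurocan or brevican, and cleavage was not measured. Adamts20 was called, read at 59.0, 112 and 56.4 CPM with AAV-GFP and 33.3, 12.7 and 15.8 CPM with AAV-A2A (log2 FC -1.89 ± 0.41, edgeR adjusted p = 0.0372). The call held without A2A-309 and was lost without any other library (adjusted p = 0.0637 to 0.156). Adamts1, the next by CPM, had a log2 FC of -0.97 ± 0.36 (adjusted p = 0.257). In the list of other lecticans, link proteins, tenascins and hyaluronan synthases none of 7 tested genes was called. The receptor phosphatase Ptprz1, also on this list, had a log2 FC of -0.18 ± 0.17 and the link protein Hapln1 of 0.31 ± 0.23.

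None was called among the 4 tested SPARC relatives, the 3 other glypicans, the 4 other thrombospondins, the 9 tested genes of bone morphogenetic protein signalling, which Chrdl1 antagonises, and the 12 tested neuronal partners. Fstl1 and Spock2, relatives of Sparc, had a log2 FC of -0.20 ± 0.22 and -0.75 ± 0.25. Gpc3 and Gpc1 had -0.44 ± 0.22 and -0.24 ± 0.29, and Thbs3 and Thbs2 had 0.53 ± 0.27 and -0.28 ± 0.59. Bmpr1b and Bmp7 had 0.33 ± 0.25 and 0.11 ± 0.30. Ptprf, of the receptor phosphatase family that binds glypicans, had -1.13 ± 0.27 (edgeR adjusted p = 0.0585). In CD11b no gene of these lists was called, where edgeR called 0 of all 16949 tested genes.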

How the data were processed

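RNA of ACSA-2 and CD11b fractions was measured by SMART-Seq v4 and single-end sequencing. The authors deposited raw read counts per gene, 1 table per fraction; per the submitters' processing notes, adapters were removed with cutadapt 1.10, reads were aligned to mm10 with STAR 2.5.3 and unique reads were counted with HTSeq 0.6.1p1. The strand setting is not given in the sources used here, and reads carried no molecular identifiers, so intervals and floors cover counting error or the spread between libraries only. The tables also held 25 empty columns, which were not used.

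Genes were matched by Ensembl identifier. Fits used edgeR 4.0.16 in R 4.3.3 (TMM scaling, filterByExpr, robust quasi-likelihood test, Benjamini-Hochberg adjustment over all tested genes), with 1 fit per fraction for the vector and 1 fit of 12 libraries for fractions and for the difference of effects. Genes whose adjusted p fell below 0.05 and whose log2 FC exceeded 0.32 in size were called. The study's own tool, DESeq2 (1.42.0 here), limma-voom (limma 3.58.1), RLE and upper quartile scaling, stricter and no filters and omission of each library were alternatives. Only the edgeR, DESeq2 and limma-voom fits were tested on simulated counts. An exact permutation test of 3 against 3 libraries cannot go below p = 0.1, so none was used. Exon lengths and coordinates came from GENCODE on GRCm38.

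Members and gene lists were chosen with earlier results of these data known. Of each related list, the 2 genes with the highest mean CPM in ACSA-2 libraries and the genes called between vectors are named, except 1 gene that is not reported here. Comp is named for its opposite directions, and Cspg4, Gpr17, Flt1 and Atp1b2 after their values were seen.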

Additional observations from a re-analysis of the deposited data

Results flagged for a closer look

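In the main fit the vector values of Axl passed the test of the difference between the fractions, but most fits with 1 library left out lost that call. The log2 FC of AAV-A2A against AAV-GFP was -1.33 in ACSA-2, where it was called, and 2.08 in CD11b, where it was not (edgeR adjusted p = 0.280), and the difference fitted over all 12 libraries was -3.44 (edgeR adjusted p = 0.0439). The difference passed in 3 of 12 fits that left out 1 library. It did not pass under upper quartile scaling, where 0 of 18602 tested genes were called, nor without the 3 choroid plexus-rich CD11b libraries (-2.88). What lies behind it was not tested.

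Comp, which encodes the thrombospondin relative of Thbs4 known from cartilage, was low in all libraries. In CD11b, 23.4% of all tested genes had vector groups without overlap. Comp was picked because its vector groups stood apart in opposite directions, so that separation is no support for an effect. In ACSA-2 it was read at 6.41, 2.46 and 3.22 CPM with AAV-GFP and 1.5, 0.166 and 0.731 CPM with AAV-A2A, and in CD11b at 0.789, 2.93 and 2.54 CPM and at 4.14, 6.70 and 4.42 CPM. The difference of the effects was -3.67 on the log2 scale and missed the threshold with edgeR (adjusted p = 0.127), while DESeq2 gave an adjusted p of 0.0159.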

How the results depend on the processing

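No paired analysis was possible because the libraries share no replicate numbers between groups and no label ties an ACSA-2 library to a CD11b library of the same animal. The 3 libraries per group limit every interval. Of the 10 genes, DESeq2 called 1 between the vectors in ACSA-2 (Sparc, against 0 with edgeR). For the difference of effects it called 1 (Megf10, against 0), a gene too sparse in CD11b to be tested there. A minimum of 10 counts in every library left 5 called between fractions with AAV-GFP (against 9) and 5 with AAV-A2A (against 8), where 6 of the 10 were tested. Among all genes, calls between the vectors in ACSA-2 went from 553 to 1263 with DESeq2 and 156 in the fit to 12 libraries. In CD11b they went from 0 to 455 with DESeq2 and 3 without the choroid plexus-rich libraries. Calls for the difference of effects went from 75 to 10 with RLE, 0 with upper quartile scaling, 345 with the minimum of 10 counts, 1695 with DESeq2 and 0 without the choroid plexus-rich libraries. Upper quartile scaling moved the median log2 FC of all tested genes from -0.050 to 0.32 between fractions with AAV-A2A, from -0.050 to -0.21 between vectors in CD11b and from 0.099 to 0.40 for the difference. The causes of these shifts were not tested.

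These log2 FC changed sign. Without the choroid plexus-rich libraries, the vector values in CD11b were -0.42 for Sparc, 0.64 for Gpc4 and 9.31 for Gpc5, whose single AAV-GFP library was then at 0, Gpc4 was 2.82 between fractions with AAV-GFP, and the differences of effects were -0.64 for Gpc4, -9.17 for Gpc5 and -0.45 for Megf10. The Gpc5 values are no bounds, and Megf10 then had 0 counts in all CD11b libraries, so these 3 values measure no effect. With limma-voom, Gpc5 was 0.039 and Thbs4 -1.98 between vectors in CD11b, Gpc4 was 0.37 between fractions with AAV-GFP and the difference for Thbs4 was 1.51. Upper quartile scaling gave -0.027 for Sparc between vectors in CD11b and 0.18 for the difference of Gpc6. Relative to astrocyte markers, Gpc4 was -0.071 and Gpc6 -0.058 between vectors in ACSA-2.

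With 1 library left out, members called stayed at 0 between vectors in both fractions and ranged over 7 to 9 and 8 to 10 between fractions with AAV-GFP and AAV-A2A, and over 0 to 1 for the difference. All genes called ranged over 272 to 448 and 0 to 0 between vectors in ACSA-2 and CD11b, 3379 to 5224 and 6969 to 8999 between fractions with AAV-GFP and AAV-A2A, and 0 to 1286 for the difference. Log2 FC that changed sign ranged, between vectors in ACSA-2, from -0.020 to 0.13 for Gpc4, -0.032 to 0.49 for Gpc5, -0.18 to 0.41 for Gpc6, -0.038 to 0.48 for Chrdl1 and -0.10 to 0.28 for Bcan. In CD11b the ranges were -0.43 to 0.82 for Sparc, -1.07 to 0.19 for Gpc5, -0.52 to 0.80 for Gpc6, -0.079 to 1.27 for Bcan and -4.74 to 1.35 for Thbs4. Between fractions Gpc4 ranged from -0.71 to 0.28 with AAV-GFP and from -0.072 to 2.20 with AAV-A2A. The differences of effects ranged from -0.48 to 0.88 for Sparc, -0.67 to 0.53 for Gpc6, -1.20 to 0.19 for Bcan and -1.80 to 4.43 for Thbs4.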

Other observations

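Atp1b2, the gene of the antigen that ACSA-2 beads bind, was chosen here after its values were seen. It was lower with AAV-A2A in ACSA-2 libraries without overlap of the groups (log2 FC -0.95 ± 0.20, edgeR adjusted p = 0.0294), and was the only one of the 10 astrocyte markers called.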
